A study of Homo sapiens with 2 samples.

Results

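Splicing factors and spliceosome proteins were examined in MKN28 cells, an established human gastric cancer line that is listed as a derivative of another gastric line, MKN74. The genes were chosen by symbol: SRSF, HNRNP, SF3A and SF3B, SNRP, SNRNP, PRPF and U2AF genes in the annotation of the array. Pseudogenes and antisense or divergent non-coding RNAs were left out, which left 71 genes of 19775 with a probe set, a set of short oligonucleotides against the same transcript. Each gene was represented by 1 probe set, selected on the measured values as the one with the highest mean log2 intensity over both arrays. The choice of genes was made with earlier results of these arrays known, so all differences below are descriptions.

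RNA was read on 2 Affymetrix arrays, 1 per group. One came from MKN28 cells labelled Sox2 overexpression, which had been infected with the lentivirus lenti-Sox2 and selected in 2 μg/mL puromycin for 3 to 5 days. The other came from MKN28 cells labelled control (NC), and the labels do not say whether these received an empty virus or puromycin. With 1 array per group there is no replicate error and no test between the groups, and only the spread between probe sets of 1 gene can be given. That technical SD of a log2 difference was 0.28, over 3471 genes with exactly 2 probe sets past the filter, and differences among cultures or arrays are not part of it.

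The array labelled Sox2 could not be checked firmly by its target gene. The brightest of its probe sets for SOX2 read 172, against 123 in the control, and the other 3 differed by 0.31, -0.023 and -0.46 on the log2 scale, so each direction below rests on the labels. Of 9 epithelial markers with a probe set, 8 passed the filter on dim genes, EPCAM did not, and their summed intensity was 653 with the Sox2 label and 672 with the control label. Fibroblast markers passed in 6 of 7 cases, with sums of 1593 and 1466, endothelial markers in 4 of 4 with 251 and 262, and leukocyte markers in 1 of 4 with 147 and 142. The filter is the median of all probe set values, so passing it does not establish a cell type. Past the 95th percentile (162 and 156 in the 2 arrays) were 1 epithelial and 3 fibroblast markers, and no endothelial or leukocyte marker. The identity of the cells therefore rests on the labels. None of these markers was at the lowest value of 1, and their part in the results was not tested. Bacterial poly-A RNAs, spiked in as a labelling control, read lower with the Sox2 label by all 24 of their probe sets, by a median of -0.75, so a scaling on them would move every gene upward by that amount.

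Introns are removed from transcripts by the spliceosome, which is built from small nuclear ribonucleoproteins (snRNPs). Each snRNP holds a small RNA and proteins of its own, and all but the U6 snRNP hold a ring of Sm proteins. The U1 and U2 snRNPs mark the start of the intron and its branch point before the U4/U6.U5 particle joins. SR proteins (SRSF) bind exons and help splice sites to be chosen, and heterogeneous nuclear ribonucleoproteins (HNRNP) coat new transcripts and often act against that choice. Both families also help to export, stabilise or translate mRNAs.

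In the values as deposited, the RNA-binding regulators read higher in the array labelled Sox2, while the snRNP core read at nearly the same level in both arrays. The median log2 difference was 0.59 over 19 HNRNP genes, 0.42 over 9 SRSF genes and -0.050 over 8 SNRP genes past the filter. The HNRNP median was 0.34 over 14 genes with the probe sets of a gene averaged, and 0.18 over 11 genes when _x_at and _s_at probe sets were dropped. Of the 71 genes, 61 reached the filter, a value of 34.25 in at least 1 array, which is the median of all probe set values, and 2 of these did so in 1 array only. At least 2-fold higher were 5 of the 61, or 8.2%, against 2.05% of all 14253 genes past the filter. None was at least 2-fold lower, against 0.645%. At least 1.5-fold higher were 17 of 61 (27.9%, against 6.46% of all genes), and at least 1.5-fold lower was 1, against 3.77%. Above 0 were 44 of 61, against 49.6% of all genes, and the median over the 61 was 0.23 against -0.0032 over all genes. Over all 71 genes with no filter, 50 lay above 0 and 18, or 25.4%, were at least 1.5-fold higher, against 6.57% of 19775 genes. The 1.5-fold count depended on which probe set stood for a gene. It was 5 of 52 genes when all probe sets of a gene were averaged and 4 of 38 genes when probe sets ending in _x_at or _s_at were left out. These suffixes mark probe sets that match several transcripts, and 37 of the 61 brightest probe sets carried one. The share of all genes under these 2 rules is not given here, so the 6.46% is no background for the counts of 5 and 4.

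**Figure D1:**
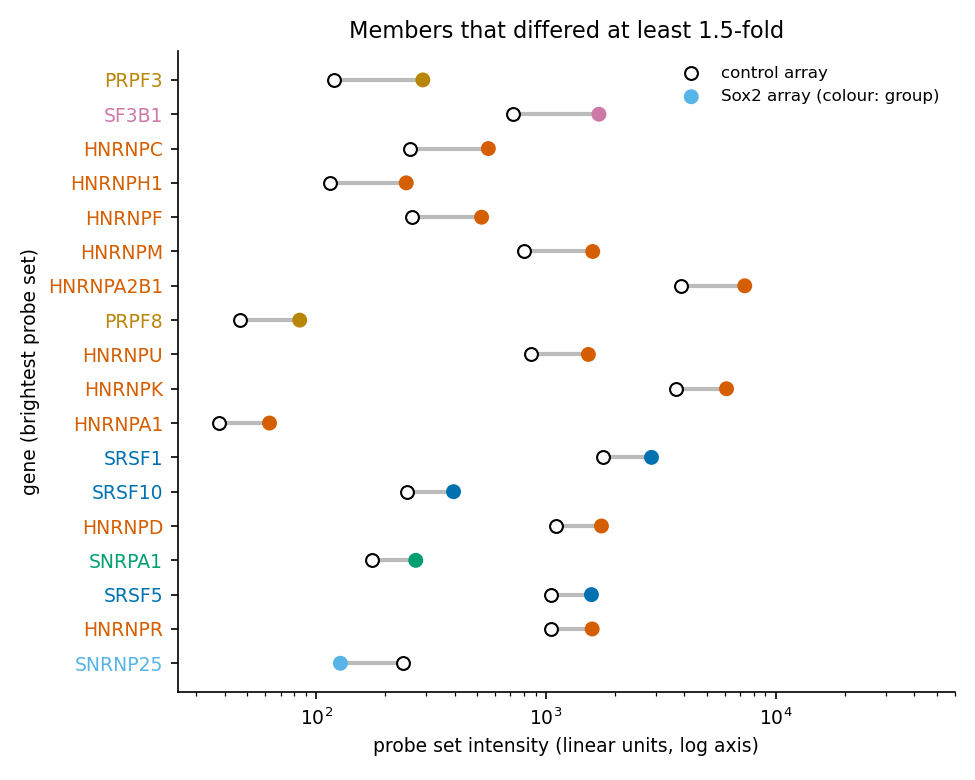
Intensities of the 18 splicing genes that differed at least 1.5-fold, on a log axis, with the control array as open points and the array labelled Sox2 as filled points coloured by group. In 17 of the 18 genes the filled point lies to the right, and SNRNP25, at 127 against 237, is the exception.

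The promoters of 3 of these genes are shown as examples and do not stand for all genes that read higher or lower. They are SF3B1, higher by all 5 of its probe sets past the filter, HNRNPC, the HNRNP gene with the largest difference by its brightest probe set (1.13, against 0.27 to 0.39 by the other 3), and SNRNP25, lower by its single probe set. Each run holds the 250 bases before the first listed transcript start, from RefSeq on GRCh38.p14. SF3B1 lies on the minus strand at chr2:197435029-197435278, HNRNPC on the minus strand at chr14:21269443-21269692 and SNRNP25 on the plus strand at chr16:53578-53827. Capitals mark matches, on either strand, to ACAATG or ACAAAG (SOX cores), CGGAAG (an ETS core) or CCAAT (the CCAAT box), of which none contains another.
SF3B1: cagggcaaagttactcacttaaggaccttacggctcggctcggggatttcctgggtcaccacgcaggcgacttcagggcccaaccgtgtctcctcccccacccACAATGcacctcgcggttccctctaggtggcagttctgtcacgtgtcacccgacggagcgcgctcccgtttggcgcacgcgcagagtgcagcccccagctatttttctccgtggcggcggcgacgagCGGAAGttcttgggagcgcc
HNRNPC: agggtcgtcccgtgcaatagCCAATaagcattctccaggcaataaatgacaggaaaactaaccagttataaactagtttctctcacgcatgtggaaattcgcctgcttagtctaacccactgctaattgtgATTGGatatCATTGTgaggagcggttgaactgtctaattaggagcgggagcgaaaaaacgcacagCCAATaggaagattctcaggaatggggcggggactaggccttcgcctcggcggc
SNRNP25: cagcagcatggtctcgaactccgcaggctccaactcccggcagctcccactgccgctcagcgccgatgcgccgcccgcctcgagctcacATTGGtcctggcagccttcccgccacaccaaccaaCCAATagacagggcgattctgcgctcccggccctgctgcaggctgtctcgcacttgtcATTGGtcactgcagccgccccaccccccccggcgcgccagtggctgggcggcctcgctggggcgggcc
The SF3B1 window held ACAATG at position -147 from the start and CGGAAG at -20. HNRNPC held 3 CCAAT boxes, at -230, -119 and -54, and a SOX core at -110, and SNRNP25 held 3 CCAAT boxes, at -161, -126 and -68. Promoters were listed for 65 of the 71 genes. Of these, 50.8% held CGGAAG, against 21.7% of 15843 protein-coding genes and 16.8% of all 27305 listed genes, and 44.6% held CCAAT, against 34.5% and 33.0%. ACAATG stood in 12.3%, against 6.7% and 9.45%, and ACAAAG in 10.8%, against 10.9% and 13.7%. Between the 15 listed genes at least 1.5-fold higher and the 41 past the filter that were not, the shares were 53.3% and 48.8% for CGGAAG, 46.7% and 41.5% for CCAAT and 13.3% and 9.76% for ACAATG. For ACAAAG they were 0 of 15 and 6 of 41. SF3B1 and HNRNPC, printed above, were the only 2 of the 15 with ACAATG, and the rest of the 15 held neither SOX core. These are matches of letters and not sites of binding.

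Of 19 HNRNP genes, 3 were at least 2-fold higher (15.8%, against 2.05% of all genes), 10 at least 1.5-fold higher (52.6%, against 6.46%) and none at least 1.5-fold lower. These counts rest on the brightest probe sets: 1 of 14 was at least 1.5-fold higher with probe sets averaged and 2 of 11 without those ending in _x_at or _s_at. The share of all genes under those 2 rules is not given here. All 19 passed the filter, and 16 lay above 0. HNRNPC, which binds uridine-rich stretches of new transcripts, read 561 against 257 in the control (2.19-fold). HNRNPH1 and HNRNPF, relatives that bind runs of G, read 247 against 114 (2.16-fold) and 524 against 261 (2.01-fold). HNRNPM, also a splicing regulator, fell just short of 2-fold at 1596 against 799.

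The 8 HNRNP genes with a geometric mean intensity of at least 500 had a median of 0.70, and 6 of them were at least 1.5-fold higher. At that level 28.1% of all 484 genes were at least 1.5-fold higher. HNRNPA2B1, an abundant packaging protein of nuclear RNA, read 7321 and 3854 (1.90-fold), and HNRNPK, which binds runs of C, 6098 and 3674 (1.66-fold). HNRNPU, a large nuclear scaffold protein, read 1528 and 864 (1.77-fold). HNRNPD, which binds AU-rich elements and affects mRNA decay, read 1742 and 1100 (1.58-fold), and HNRNPR 1588 and 1056 (0.59 on the log2 scale). Intensities of different genes do not rank their transcripts, because probe sets bind with different strength.

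HNRNPA1, the classical opponent of SRSF1 at 5′ splice sites, read 62.7 against 37.9 (0.72 on the log2 scale) by a dim probe set. Its brighter probe sets also name other genes and stand outside these counts. They read 1060 against 945 (0.17 on the log2 scale) and 777 against 628 (0.31). HNRNPL, which binds CA repeats, was level at 2160 and 2168, with 160 and 181 by a dimmer probe set. HNRNPH3 was nearly so at 121 and 116. HNRNPA3 (49.3 and 57.4) and HNRNPUL1 (52.5 and 53.9) lay below 0. The other HNRNP genes, HNRNPDL, HNRNPUL2, HNRNPLL, HNRNPAB and HNRNPA0, lay between 0.29 and 0.58.

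All 9 SRSF genes past the filter read higher in the array labelled Sox2, though by less, and none reached 2-fold. SRSF1, the founding SR protein, read 2876 against 1767 (1.63-fold), SRSF10, which represses splicing when it loses its phosphates, 396 against 248 (1.60-fold), and SRSF5 1576 against 1047 (1.51-fold). These were the 3 at or past 1.5-fold (33.3%, against 6.46% of all genes). SRSF1 and SRSF5 have a geometric mean intensity of at least 500, where 28.1% of all 484 genes were at least 1.5-fold higher. SRSF7 read 780 against 524 (1.49-fold), SRSF6 160 against 119 and SRSF4 lay at 0.37 on the log2 scale. SRSF3, the smallest family member, was close to level at 696 and 627, as were SRSF8 (64.0 and 60.1) and SRSF12 (46.5 and 41.8). SRSF11, under the filter, read 7.48 and 6.70. After subtraction of the trend with level or after quantile normalization 8 of 9 remained above 0, and the count at 1.5-fold was 0 and 1. With probe sets averaged, 6 of 7 were above 0 and none reached 1.5-fold. The share of all genes under these rules is not given here. The SRSF2 probe sets past the filter name a microRNA gene as well and were not counted. They read 5500 against 4175, 5084 against 4193 and 223 against 210. SRSF9, whose probe sets also name another gene, was close to level at 846 against 827 and 421 against 383.

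**Figure D2:**
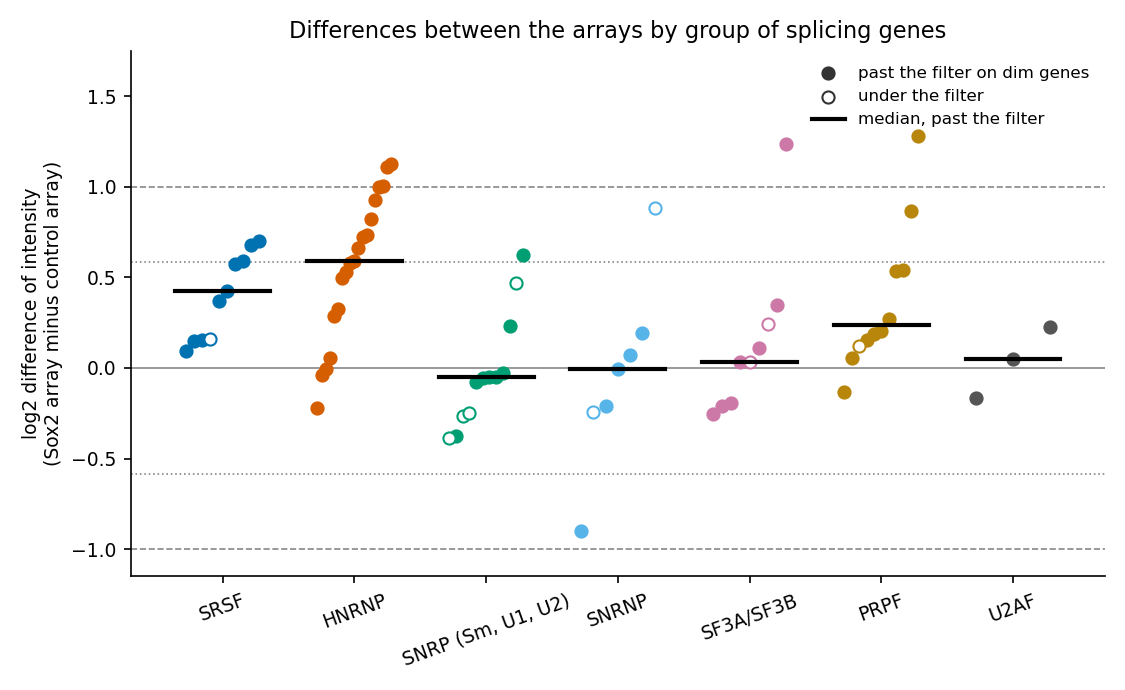
Log2 difference of each gene, array labelled Sox2 minus control, by group; filled points passed the filter, open points did not, and bars are medians of the former. Dotted lines mark 1.5-fold and dashed lines 2-fold; the HNRNP and SRSF medians lie at 0.59 and 0.42 and the SNRP median at -0.050.

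In the values as deposited, the snRNP core differed little. Of 12 SNRP genes, 8 passed the filter and 6 of these lay below 0. In the Sm ring, SNRPE read 162 and 171, SNRPB 108 and 112, SNRPD1 74.5 and 75.9, and SNRPG 47.7 and 49.3. Only SNRPD3, at 98.2 and 83.5, was above 0 in the ring, among the 5 of its genes past the filter. SNRPF and SNRPD2, under the filter, read 21.5 and 25.9, and 19.9 and 26.0.

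Proteins specific to the U1 and U2 snRNPs were less even. SNRPA and SNRPC of the U1 snRNP read 37.0 and 38.5, and 119 and 154. SNRPA1, a U2 protein, was the 1 SNRP gene past 1.5-fold, at 271 against 176 (1.54-fold), and a dimmer probe set read 108 against 80.6. Its partner SNRPB2, just under the filter, read 28.4 and 33.7. SNRPN, a brain-rich relative of SNRPB, read 10.7 and 7.71 by its own probe set.

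Among the SNRNP genes, SNRNP25, a protein of the minor spliceosome that removes a rare class of introns, was the 1 gene at least 1.5-fold lower. It read 127 against 237 in the control, 1.86-fold lower, by a single probe set. The median over the 5 SNRNP genes past the filter was -0.0067. Of the other minor spliceosome proteins, SNRNP35 read 31.7 and 36.7, and SNRNP48, under the filter, 24.3 and 13.2. SNRNP70 of the U1 snRNP and SNRNP40 of the U5 snRNP were nearly level, with log2 differences of 0.072 and 0.19, and SNRNP27, under the filter, read 25.5 and 30.2. SNRNP200, the helicase that unwinds U4 from U6, read 34.5 and 34.7 by the only probe set that names it alone, which was the member closest above the filter. Probe sets that name it with a second gene read 827 against 338 (2.45-fold) and 97.6 against 37.7 (2.59-fold).

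Of the SF3A and SF3B subunits of the U2 snRNP, which grip the branch point, 1 was at least 1.5-fold higher, SF3B1, and the median over 7 was 0.032. SF3B1 read 1699 against 721 in the control (2.36-fold). Its 4 other probe sets past the filter read 930 against 331, 854 against 321, 310 against 138 and 64.6 against 48.8, so all 5 were higher and 4 of them by more than 2-fold. The 4 bright ones end in _x_at or _s_at, and the remaining one gave 0.41 on the log2 scale. The other subunits past the filter lay between -0.25 (SF3B6) and 0.35 (SF3A3). SF3B2 read 152 and 141, SF3A1 81.4 and 79.7, SF3B3 64.9 and 75.2 (its other probe set gave 0.49 on the log2 scale) and SF3A2 57.2 and 65.3. SF3A3, at 34.8 and 27.4, passed the filter in 1 array only, and SF3B4 and SF3B5 did not pass.

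Many PRPF proteins belong to the U4/U6.U5 particle, and 9 of 10 past the filter lay above 0, with a median of 0.24. PRPF3, a U4/U6 protein, had the largest difference of all 61 genes, at 291 against 120 (2.43-fold), by its 1 probe set. It stayed at least 2-fold higher under each of the 3 other scalings between arrays; the other alternatives could not change its value. PRPF8, which forms the heart of the catalytic centre in the U5 snRNP, read 84.8 against 46.5 (1.82-fold), also by 1 probe set. PRPF6, a bridge within the particle, read 215 against 148 and PRPF4, a partner of PRPF3, 85.6 against 59.1. PRPF31 was near level at 86.2 and 77.3, and so was PRPF19, a ubiquitin ligase, at 151 and 146. PRPF18, a late-acting factor, lay below 0 at 71.8 and 78.6. PRPF40B, PRPF38A and PRPF38B lay between 0.19 and 0.27, and PRPF39 was under the filter. PRP4K, a kinase once named PRPF4B, falls outside the symbol rule and read 608 against 308 by its brightest probe set. Its other probe set past the filter read 29.9 against 43.9, in the other direction. The U2AF genes, whose products read the 3′ end of the intron, were near level: U2AF2 read 157 and 134, with a median of -0.15 over its other probe sets past the filter, U2AF1L4 188 and 211 and U2AF1 57.1 and 55.1.

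**Figure D3:**
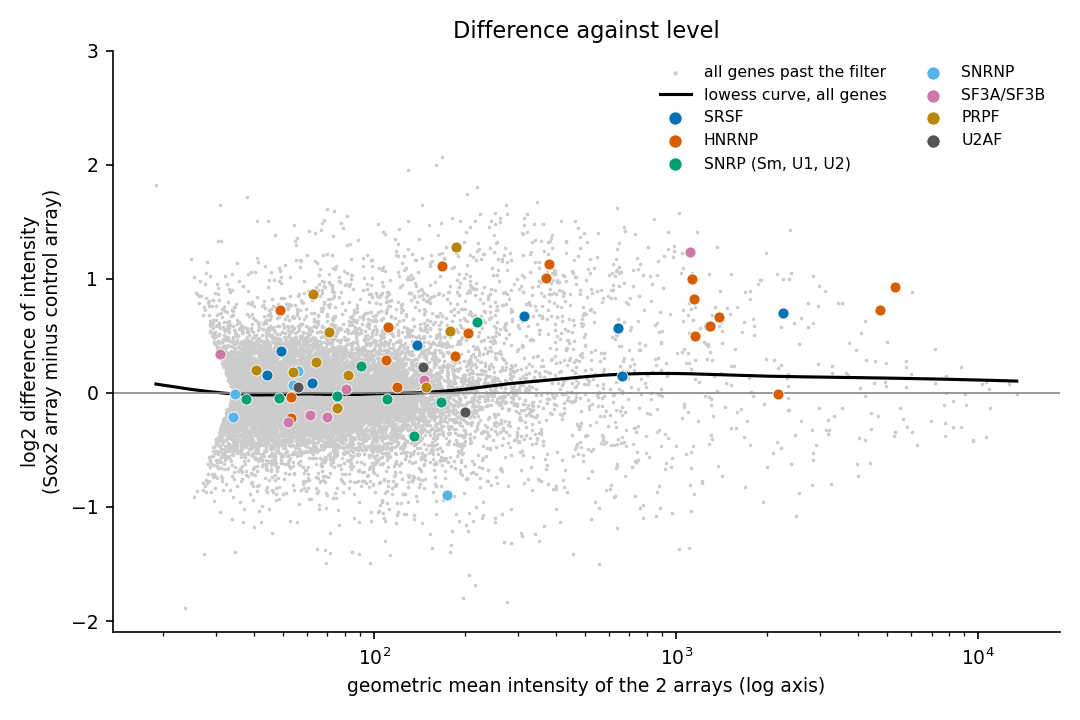
Log2 difference against the geometric mean intensity of both arrays on a log axis, with all 14253 genes past the filter in grey, the splicing genes coloured by group and the lowess curve over all genes in black. At intensities of 500 and above the splicing genes have a median of 0.66 and the other genes 0.11.

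The differences moved with level. Of the 13 splicing genes with a geometric mean intensity of at least 500, 9 were at least 1.5-fold higher (69.2%), against 28.1% of the 484 genes at that level. Between 100 and 500 it was 6 of 21 (28.6%, against 12.1% of 3443 other genes), and below 100 it was 2 of 27 (7.41%, against 3.5% of 10278). The median differences in these classes were 0.66, 0.33 and 0.072 for the splicing genes and 0.11, 0.020 and -0.013 for the others. Across genes, Spearman's rho between level and difference was 0.53 over the 61 splicing genes and 0.066 over 14232 genes, which share the same 2 arrays. Within the class from 100 to 500, the 8 HNRNP genes had a median of 0.55 and the 4 SNRP genes -0.065. When the lowess trend with level was subtracted, the medians were 0.50 for HNRNP, 0.41 for SRSF and -0.037 for SNRP. Then 11 splicing genes were at least 1.5-fold higher, and the share of all genes after this subtraction is not given here. What part level played was not tested beyond this.

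Several probe sets past the filter were present for 32 of the genes. All lay above 0 in 19 of these (59.4%), against 22.2% of 5495 such genes in all, and all below 0 in 2, HNRNPL and SNRPE. Over the 122 probe sets of the splicing genes past the filter, 91 (74.6%) lay above 0, against 50% of all that name 1 gene. The brightest probe set differed more than the rest: its median over the 32 genes was 0.35, against 0.19 for the median of the others. In 23 of 32 genes the brightest gave the higher value.

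Single genes differed in how well their probe sets matched. In HNRNPM, the bright pair gave 0.999 and 0.94 and the 3 dimmer ones -0.005, -0.21 and -0.12. HNRNPD ranged from 1.40 (101 against 38.1) to -0.26 (35.4 against 42.4), and HNRNPDL from 0.66 (81.2 against 51.4) to -0.48 (48.2 against 67.1). For HNRNPC the 3 dimmer probe sets gave 0.28, 0.27 and 0.39 against 1.13 for the brightest. HNRNPA2B1 had 0.93 by the brightest, 0.011 and 0.083 by the next and 1.14 by a dim one (43.5 against 19.7). SRSF1 was steadier in sign, with 0.70, 1.02, 0.22 and 0.56, and SRSF10 gave 0.68, 0.40 and 1.23. Without probe sets of these suffixes the 2 HNRNP genes at least 1.5-fold higher were HNRNPD and HNRNPDL, and with all probe sets averaged the 1 was HNRNPF.

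**Figure D4:**
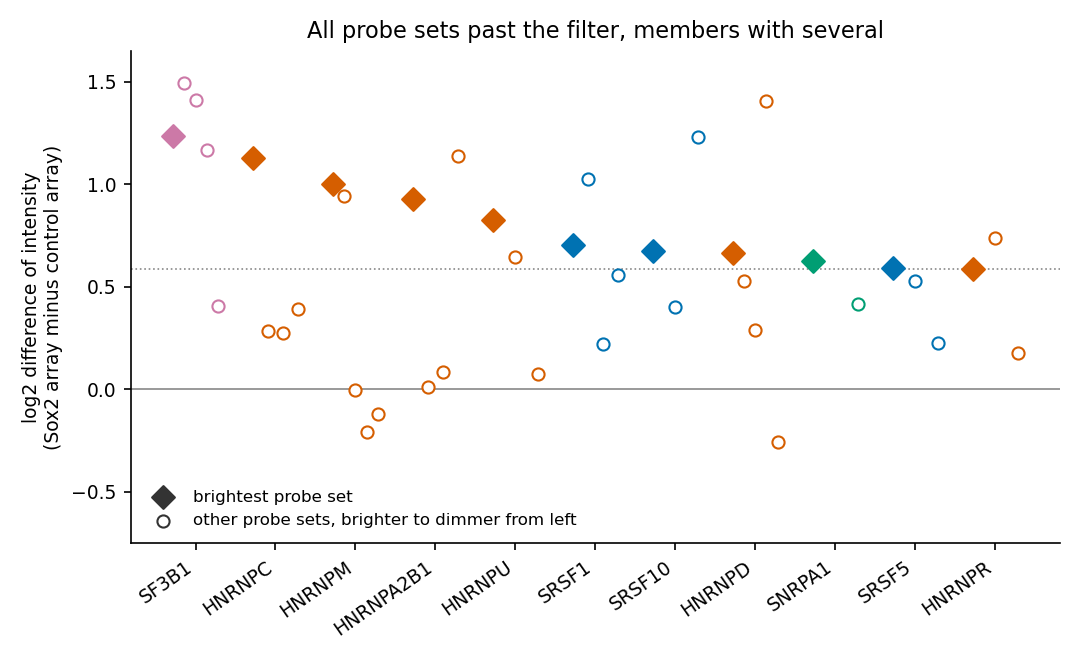
Log2 difference of every probe set past the filter for the 11 genes that were at least 1.5-fold higher and had several; diamonds mark the brightest, open circles the others in order of level, and the dotted line 1.5-fold. The SF3B1 probe sets all lie above 0, 4 of them above 1, while those of HNRNPM and HNRNPD fall on both sides of 0.

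Other genes of the pathway were taken from lists set up with earlier results known, 125 genes of which 116 had a probe set and 102 passed the filter. At least 2-fold higher were 16 (15.7%, against 2.05% of all genes) and lower none, at least 1.5-fold higher 30 (29.4%, against 6.46%) and lower 2, and the median was 0.12. Several probe sets past the filter were present for 13 of the 16, and all lay above 0 for 6 of these, while the other 7 had at least 1 below 0. The list of splicing regulators, which takes in relatives of the HNRNP proteins under other symbols, held 8 of the 16. These were 26.7% of its 30 genes past the filter, and its median was 0.52. Among them PTBP2, a relative of the polypyrimidine tract protein known from neurons, read 565 against 203 (2.79-fold). MBNL2 and MBNL1, muscleblind proteins, read 523 against 197 (2.66-fold) and 1518 against 639 (2.37-fold). CELF1, which often opposes them, read 2127 against 877 (2.43-fold), and QKI 3462 against 1669 (2.08-fold). For QKI, 7 of 8 probe sets past the filter lay above 0, but CELF1 gave 1.28, 1.23, 1.002 and 0.18 by its brighter probe sets and -0.18, -0.53 and -0.036 by the dimmer ones. MBNL1 had 1 of 4 below 0, at -0.31. NONO (2.23-fold), RBM6 (2.14-fold) and SYNCRIP, a close relative of HNRNPR (2.14-fold), were the rest.

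Genes that act on SR proteins were among the others. TNPO3, which carries SR proteins into the nucleus, read 617 against 193 (3.20-fold), with 343 against 114 by a second probe set and 59.1 against 100 by a dimmer one. SRPK1, an SR protein kinase, read 126 against 55.6 (2.26-fold), CLK4, another, 270 against 126 (2.15-fold), SRRM2, a large SR-related protein, 1380 against 601 (2.30-fold) and RBM25 410 against 185 (2.22-fold). The other SRRM2 probe sets gave 0.18, -0.24 and 0.33, and those of RBM25 0.99, 0.23 and -0.63. That list of SR-related proteins and kinases held 5 of 21 at 2-fold (23.8%, against 2.05% of all genes), with a median of 0.20. In the activated spliceosome and Prp19 complex it was 3 of 33 (9.09%, against 2.05% of all genes), with a median of 0.091. These were CDC5L (408 against 177), PLRG1 (189 against 92.3) and the helicase DHX15 (4049 against 1993). None of 11 genes of the exon junction and SMN complexes reached 2-fold, against 2.05% of all genes (median 0.14). No share of all genes at a like level is given for any of these lists. The LSm proteins form Sm-like rings on U6 or, for LSM10 and LSM11, take part in the ring of the U7 snRNP of histone mRNA processing. Of 7 past the filter, 6 lay below 0, with a median of -0.32. LSM4 read 160 against 249, and the U7 proteins LSM10 and LSM11 lay at -0.58 and -0.32. Of the 5 U6 genes, LSM3 was above 0 at 0.30 and LSM8 close to level at -0.0075.

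**Figure D5:**
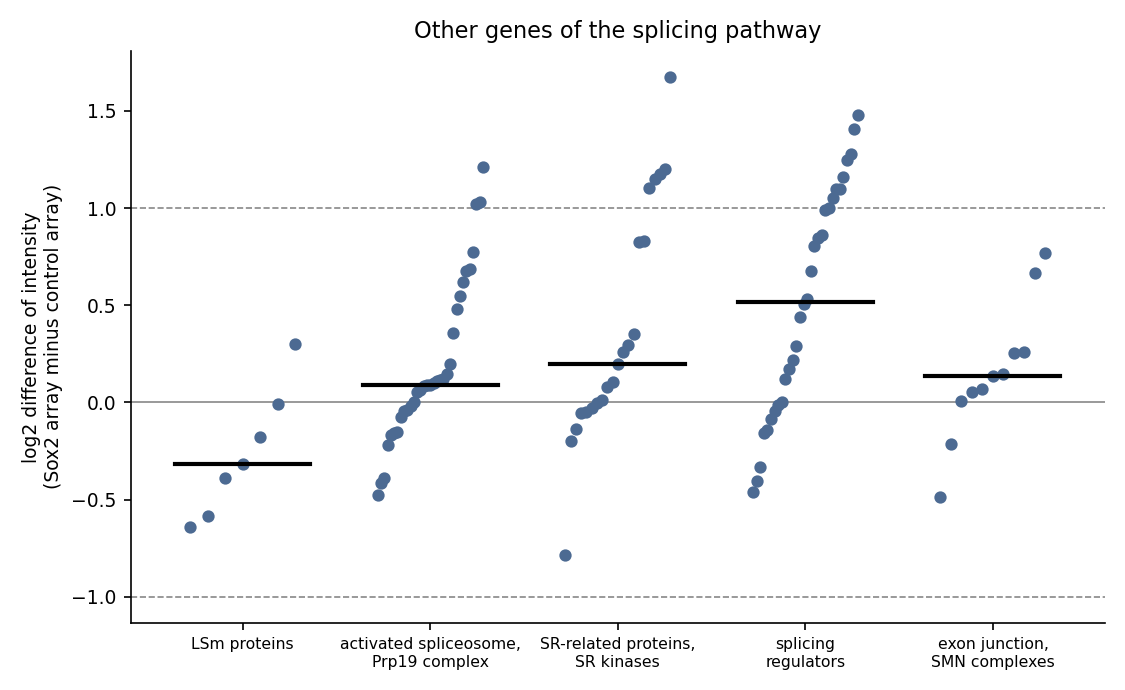
Log2 difference of the other splicing genes past the filter, array labelled Sox2 minus control, in 5 lists, each point a gene and each bar a median; dashed lines mark 2-fold. The medians run from -0.32 for the LSm proteins to 0.52 for the splicing regulators.

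For scale, the same measure was taken for 2 other gene families. Some of the DEAD and DEAH box helicases, DHX15 among them, also stand in the lists above. Of 37 past the filter, 3 were at least 2-fold higher (8.11%, against 2.05% of all genes and 8.2% of the splicing genes). None was at least 2-fold lower, and the median was 0.11. At least 1.5-fold higher were 8 of the helicases (21.6%, against 6.46% of all genes and 27.9% of the splicing genes). Of 55 cytosolic ribosomal proteins, none was at least 2-fold higher and 1 was at least 2-fold lower, against 0.645% of all genes. At least 1.5-fold lower were 8, against 3.77% of all genes, and the median was -0.32. The median intensity of the ribosomal genes was 879 and that of the splicing genes 119. At a geometric mean intensity of at least 500, 11.7% of the 471 genes outside the splicing set were at least 1.5-fold lower. No difference between these families could be tested.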

How the data were processed

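Gene expression was measured in 2 samples of MKN28 cells, 1 labelled Sox2 overexpression and 1 control. Per the submitters' processing notes, the authors used RMA, and what they deposited is a linear intensity per probe set. Its version, its settings and the last step to linear values have not been given in the sources used here. The arrays do not share 1 distribution, as quantile-normalized RMA values would (95th percentiles 162 and 156), and quantile normalization lowered the count at least 1.5-fold higher from 17 to 12. Intensities ran from 1 to 19811 in 1 array and to 19501 in the other, with medians of 34.25 and 34.26, and correlated at 0.964 on the log2 scale.

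Probe sets that name exactly 1 gene in the platform annotation (41091) were used, with biotypes from RefSeq. No symbol there is spelled SFRS; SREK1, once SFRS12, was kept with the SR-related proteins. HNRNPA3P1, HNRNPD-DT and SNRPF-DT were left out. Differences are log2 values, array labelled Sox2 minus control, with no further scaling. The technical SD is 1.4826 times the median absolute deviation of differences between probe set pairs, divided by the square root of 2. Members and lists were chosen with earlier results of these data known. Full values are given for each gene at least 1.5-fold different, the brightest of each group, genes whose probe sets oppose each other, and other splicing genes at least 2-fold different; other values are given to account for every member. Counting was tested on simulated data, at 2-fold only and with less noise than the technical SD. It therefore checks the counting and says nothing of how certain the calls at 1.5-fold are. The number of arrays limits the precision. Python 3.11.15, numpy 2.4.6, pandas 2.3.3, SciPy 1.17.1, statsmodels 0.14.6 (lowess span 0.3) and matplotlib 3.10.9 were used.

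Alternatives covered the probe set rule, the filter and the scaling between arrays.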

Additional observations from a re-analysis of the deposited data

Results flagged for a closer look

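Probe sets that name a splicing gene together with another gene were outside all counts, and 5 of the 16 past the filter read higher with the Sox2 label by 1.5-fold or more, with none lower by as much. Of all 1076 probe sets past the filter that name several genes, 6.97% did. The largest were both for SNRNP200, the U5 helicase, which differed by 1.37 and 1.29 on the log2 scale, while the probe set that names it alone differed by -0.0067. HNRNPA3 differed by 0.77 by a bright probe set (3797 against 2229) and by 0.69 by a dim one, against -0.22 by the probe set counted above, and HNRNPH2, a relative of HNRNPH1, by 0.79 (172 against 99.5). Others were near level: SRSF9 at 0.033 and 0.14, and HNRNPUL2 at -0.0086. Which of the named genes these probe sets read was not tested.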

How the results depend on the processing

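Each result was recomputed under 7 alternatives: averaging probe sets, leaving out those ending in _x_at or _s_at, no filter, a filter at the 75th percentile, median centring, quantile normalization and subtraction of a lowess trend. The medians of all members (0.078 to 0.46), SRSF (0.34 to 0.57), HNRNP (0.18 to 0.66) and PRPF (0.15 to 0.40) stayed above 0 and that of SNRP (-0.057 to -0.037) below. A scaling on the bacterial RNAs, whose median difference was -0.75, was not among the 7. It would move every gene upward, the SNRP genes included, so where 0 lies rests on the deposited scaling. The HNRNP median moved most without _x_at and _s_at probe sets, to 0.18, and the SF3 median then changed sign, to -0.21. The SNRNP median was 0.0032 after lowess and -0.90 at the stricter filter, where SNRNP25 alone is left. The count at least 2-fold higher was 3 with averaged probe sets, 3 without _x_at and _s_at probe sets and 3 after quantile normalization, and at most 6. The count at 1.5-fold was 5 with averaged probe sets, 4 without _x_at and _s_at probe sets and 11 after lowess. The share of all genes in these settings is not given. Without _x_at and _s_at probe sets 23 of 38 members lay above 0. Of the 18 genes at least 1.5-fold different, HNRNPM changed sign in that setting (-0.005). Of the 126 values, 11 others moved by more than the technical SD, 102 did not, and 12 could not be had. All 11 moved under the probe set rules. Many of the 102 could not move: a filter leaves a gene's value as it is, and median centring shifts all genes alike by 0.0032. Averaging also leaves a gene with 1 probe set unchanged, so the 102 are no measure of stability. HNRNPC, HNRNPH1 and HNRNPA1 fell under the filter when probe sets were averaged. HNRNPH1, HNRNPF and HNRNPA1 were among the 9 missing without _x_at and _s_at probe sets, so HNRNPH1 has no value in either setting. HNRNPC was measured without those probe sets and gave 0.39, below 1.5-fold. Fewer genes enter under both probe set rules (52 and 38); beyond that, the cause was not tested. The 2 arrays carry no replicate error, and dim members, 10 under the filter, cannot show small differences.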
